A study of Mus musculus with 2 samples.

Results

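Polyamine metabolism is represented here by 9 mouse genes: Odc1, Azin1, Oaz1, Oaz2, Amd1, Amd2, Srm, Sms and Sat1. They were found as the array spots whose only gene symbol in the platform annotation is one of these names. Of the 9 genes, 8 were measured, on 34 spots, among 10791 named genes on either array, and Amd1 had no such spot. The data are 2 two-colour spotted arrays of mouse flexor tendon cells, 1 per time point. On the 6 h array, pooled cells sheared for 6 h (Cy5) were set against pooled unsheared control cells of the same time (Cy3). On the 12 h array, cells sheared for 12 h at a label setting of 50 rpm (Cy5) were set against control tenocytes, the fibroblast-like cells of tendon, of the same time (Cy3). The labels give no rotation speed for the 6 h cells, no strain, age or passage of the cells, and no further agent.

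Polyamines are small, positively charged molecules that bind RNA and DNA and are needed for growth and protein synthesis. Ornithine decarboxylase makes putrescine from ornithine. Spermidine synthase and spermine synthase then add aminopropyl groups taken from decarboxylated S-adenosylmethionine. The pathway is known for feedback: antizymes, whose translation needs a polyamine-driven ribosomal frameshift, bind ornithine decarboxylase and send it to the proteasome, the antizyme inhibitor frees it again, and an acetyltransferase marks spermidine and spermine for breakdown or export. Much of this control acts on translation and on the proteins, whereas the arrays compare RNA.

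Each value is a log2 ratio, likely of sheared over control, after the median of the array was set to 0. A gene's value is the median of its spots, and the SD given with it is the spread between those spots, not between cultures. With 1 array per time point and no dye swap, no test or p-value was possible: "higher" and "lower" state what was read on 1 array, and so few arrays limit the precision. The deposited ratios had medians of -0.323 at 6 h, over 39776 measured spots, and -0.479 at 12 h, over 41717, so every value is lower by that much without centring. Base 2 and the direction are not stated: the direction rests on the labelled dyes and the usual red-over-green form, and the reverse would turn every sign. The SD between spots of the same gene, pooled over all genes with at least 2, was 0.738 at 6 h and 0.855 at 12 h. Between repeat spots of the same sequence entry it was 0.892 at 6 h, over 554 entries, and 0.991 at 12 h, over 611. Each of these SDs of single spots is larger than the log2 of 1.5-fold, 0.585, the threshold used below. The values are ratios in a mixture of cells, so fewer cells of a type and less RNA per cell cannot be told apart.

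Amd2 and Odc1, of polyamine synthesis, Sat1, of breakdown, and the antizyme gene Oaz1 read at least 1.5-fold higher in sheared than in control cells on both arrays. Azin1 passed that mark at 6 h and Srm at 12 h, while Oaz2 and Sms lay near the array median. At 6 h, 5 of the 8 measured genes were at least 1.5-fold higher (log2 0.585) and 0 were at least 1.5-fold lower; over all 10346 genes of that array, 18.2% were that much higher and 31.3% that much lower. At 12 h, 5 of 8 were again at least 1.5-fold higher and 0 lower, against 24.4% and 33.1% of 10731 genes. The median of the 8 genes was 0.73 at 6 h (1.66-fold) and 1.12 at 12 h (2.17-fold), beside medians of -0.11 and -0.14 over all genes. Without centring, 3 of 8 were that much higher at 6 h, since Oaz1 stood at 0.42 and Azin1 at 0.39. At 12 h 4 of 8 were, since Oaz1 stood at 0.53. Azin1 at 12 h (-0.25) and Oaz2 and Sms at both times (-0.30 and -0.31 at 6 h, -0.40 and -0.59 at 12 h) then read below 0. With the mean of a gene's spots, Azin1 stood at 0.55 at 6 h, under 1.5-fold, and Sms at -0.52. These genes were chosen with their values on both arrays known, so their counts and medians are a description. By spot, 26 of the 34 lay above 0 at 6 h and 27 at 12 h, with 17 and 15 at least 1.5-fold higher and 3 on each array that much lower. Of all measured spots, 24.9% were that much higher and 28.5% lower at 6 h, and 31.2% and 30.5% at 12 h.

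**Figure D1:**
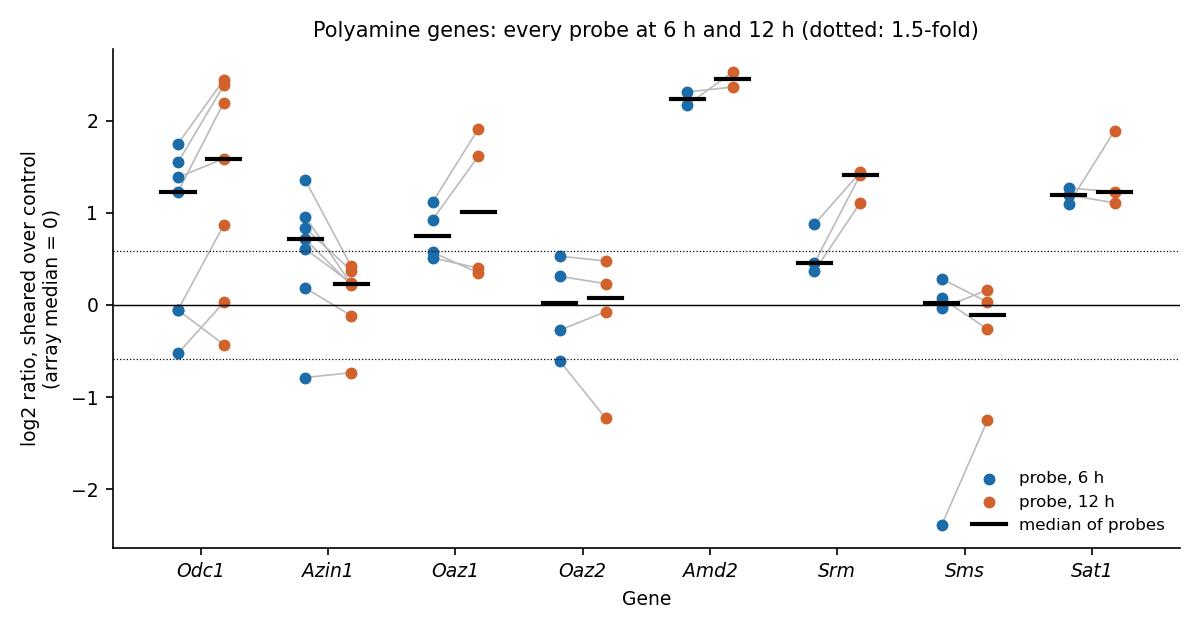
Log2 ratio of sheared over control (vertical axis, array median at 0) of each of the 34 spots of the 8 measured genes. Blue points are the 6 h array, orange points the 12 h array, grey lines join the same spot and black bars are the gene medians. Both Amd2 spots lie above 2 at both times, the Odc1 spots split into a high and a low set, and Oaz2 and Sms are spread around 0.

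S-adenosylmethionine decarboxylase, which supplies the aminopropyl donor, had the highest values. The 2 spots annotated as Amd2 read 2.31 and 2.17 in sheared over control cells at 6 h. They read 2.36 and 2.53 at 12 h. Their median was 2.24 (SD 0.10, 2 spots), or 4.72-fold higher, at 6 h and 2.45 (SD 0.12), or 5.45-fold, at 12 h. The spots lay close together on both arrays, and 99.6% of all genes read lower at 6 h and 99.2% at 12 h.

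The symbol Amd2 does not settle which transcript these spots measured. Mouse Amd2 is a copy of Amd1 that lacks its introns, and in RefSeq's table for GRCm38.p6 it spans 3201 bases, against 14731 bases for Amd1. The same table lists 7 Amd pseudogenes and carries Amd1 as an older name of Amd2. The RefSeq start-site windows of both genes show the relation. They share an unbroken run of 48 bases, which begins at the first transcribed base of Amd2 and the third of Amd1 and runs to the end of the Amd1 window. Its first 30 bases, shown because a spot for one gene can bind the transcript of the other, are given here, all in capitals as shared:
Amd1 and Amd2: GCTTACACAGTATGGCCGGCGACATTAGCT

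The sequences before the 2 start sites differ. They are shown, with those of Odc1 and Sat1, because these are the genes that make or break down polyamines with the highest 6 h values. Each line is the 250 bases up to the start site on the gene's own strand, from RefSeq, GRCm38.p6, at chr10:40302189-40302438 (minus) for Amd1, chr10:35711892-35712141 (minus) for Amd2, chr12:17544623-17544872 (plus) for Odc1 and chrX:155216450-155216699 (minus) for Sat1. Capitals mark matches, on either strand, to the GC box GGGCGG, the E-box CACGTG bound by Myc and Max, the cyclic AMP response element TGACGTCA or the TATA box TATANAA.
Amd1: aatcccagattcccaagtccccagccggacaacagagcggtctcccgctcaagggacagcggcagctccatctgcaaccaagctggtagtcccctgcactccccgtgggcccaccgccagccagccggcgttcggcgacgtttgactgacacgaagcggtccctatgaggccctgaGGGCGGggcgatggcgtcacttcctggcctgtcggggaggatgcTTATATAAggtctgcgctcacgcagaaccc
Amd2: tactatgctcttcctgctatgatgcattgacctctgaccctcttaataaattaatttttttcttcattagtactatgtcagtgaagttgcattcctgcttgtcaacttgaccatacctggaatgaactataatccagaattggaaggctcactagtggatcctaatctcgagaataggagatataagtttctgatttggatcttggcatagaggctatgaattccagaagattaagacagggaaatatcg
Odc1: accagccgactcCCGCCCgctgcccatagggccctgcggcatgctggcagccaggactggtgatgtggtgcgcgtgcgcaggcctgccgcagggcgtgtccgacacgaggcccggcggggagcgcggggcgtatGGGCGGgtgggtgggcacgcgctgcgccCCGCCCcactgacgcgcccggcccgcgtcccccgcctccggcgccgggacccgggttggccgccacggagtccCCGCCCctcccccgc
Sat1: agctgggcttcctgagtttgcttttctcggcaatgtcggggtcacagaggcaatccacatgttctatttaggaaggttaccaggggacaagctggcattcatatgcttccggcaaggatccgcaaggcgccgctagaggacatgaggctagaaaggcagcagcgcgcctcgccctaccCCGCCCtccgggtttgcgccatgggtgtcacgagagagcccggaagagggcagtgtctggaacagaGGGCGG
The Amd1 window holds a GC box 74 bases before the start and 2 overlapping TATA matches that begin 30 and 29 bases before it. The Amd2 window holds none of the 4 motifs, and its G and C content is 37.6%, against 64.4% for Amd1. The Odc1 window, with a G and C content of 80%, holds 4 GC boxes and the Sat1 window 2. Of the 8 windows found for 7 of the genes (Amd1, Amd2, Oaz1, Oaz2, Odc1, Sat1 and 2 for Sms), 5 hold a GC box, 1 an E-box (the upstream Sms window), 1 a TATA box and 0 the cyclic AMP element. Among all 32851 windows of the same length, 32.7%, 6.02%, 10.4% and 1.55% hold these motifs in the same order. A match is a run of letters and was not tested as a site. Sequence outside these 250 bases, introns included, was not searched, so a window without a motif does not show that the gene lacks it.

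Odc1, which encodes ornithine decarboxylase, was next. Its 7 spots read from -0.53 through a median of 1.23 to 1.75 at 6 h, a 2.34-fold higher level (SD 0.93). At 12 h they read from -0.43 through 1.59 to 2.44, or 3.0-fold (SD 1.17). The spots differed among themselves. On the 6 h array 4 of them lay at 1.23, 1.39, 1.55 and 1.75, while the other 3 lay at -0.06, -0.06 and -0.53. The same 4 were the highest at 12 h, at 2.20, 1.59, 2.38 and 2.44, and the others read 0.87, -0.43 and 0.03. The 2 spots at -0.06 and -0.53 that read 0.87 and 0.03 at 12 h are annotated with the same sequence entry. The median of Odc1 is therefore the lowest of its high set on both arrays, and the mean over its spots was 0.75 at 6 h and 1.30 at 12 h.

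The regulators of ornithine decarboxylase differed from one another. Oaz1, antizyme 1, read 1.11, 0.92, 0.57 and 0.51 on its 4 spots at 6 h, with a median of 0.75 (SD 0.29), or 1.68-fold. At 12 h the same spots read 1.91, 1.61, 0.35 and 0.40, with a median of 1.01 (SD 0.81), or 2.01-fold. All 4 spots lay above 0 at both times, and at 12 h they formed a higher and a lower pair.

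Azin1, the antizyme inhibitor, is a relative of ornithine decarboxylase that has no enzyme activity and binds antizyme in its place. Its 7 spots read from -0.79 through 0.71 to 1.36 at 6 h (SD 0.69), a 1.64-fold higher median. At 12 h they read from -0.74 through 0.23 to 0.42 (SD 0.40), or 1.17-fold. At 6 h, 5 of the 7 spots were at least 1.5-fold higher, and at 12 h 0 were. The same spot was lowest on both arrays.

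Oaz2, antizyme 2, lay at the array median. Its 4 spots read 0.53, 0.31, -0.27 and -0.61 at 6 h, with a median of 0.02 (SD 0.52). At 12 h they read 0.48, 0.23, -0.08 and -1.23, with a median of 0.08 (SD 0.75). The spots at 0.31 and -0.61, which read 0.23 and -1.23 at 12 h, carry the same sequence entry, so repeats of one probe spanned much of the range. On the same array, Oaz1 exceeded Oaz2 by 0.73 at 6 h, more than the combined SD of their spots (0.60), and by 0.93 at 12 h, less than it (1.11).

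The aminopropyl transferases gave unlike values. Srm, spermidine synthase, read 0.87, 0.45 and 0.37 on its 3 spots at 6 h, a median of 0.45 (SD 0.27), or 1.37-fold. At 12 h they read 1.44, 1.41 and 1.11, a median of 1.41 (SD 0.18), or 2.66-fold. The highest of its spots at 6 h lay below the lowest at 12 h. How often this holds among all genes was not counted, so it is a description only.

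Sms, spermine synthase, read 0.28, 0.07, -0.04 and -2.39 on its 4 spots at 6 h, a median of 0.02 (SD 1.25). At 12 h they read 0.03, -0.26, 0.16 and -1.25, a median of -0.11 (SD 0.64). The same spot lay far below the other 3 on both arrays. The gap of Srm over Sms was 0.44 at 6 h, within the combined SD of 1.28, and 1.52 at 12 h, beyond the combined SD of 0.67.

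Sat1, spermidine/spermine N1-acetyltransferase, starts polyamine breakdown and export. Its 3 spots read 1.27, 1.19 and 1.10 at 6 h, a median of 1.19 (SD 0.09), or 2.28-fold. At 12 h they read 1.23, 1.11 and 1.89, a median of 1.23 (SD 0.42), or 2.34-fold. All 3 spots were at least 1.5-fold higher on both arrays, and 96.5% of all genes read lower at 6 h and 89.4% at 12 h. Odc1 and Sat1, at the opposite ends of the pathway, were 0.04 apart at 6 h and 0.36 apart at 12 h, with combined SDs of 0.93 and 1.24.

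From high to low, the order at 6 h was Amd2, Odc1, Sat1, Oaz1, Azin1, Srm, Oaz2 and Sms. Of its 7 gaps between neighbours, 2 exceeded the combined SD of the spots. These were Amd2 over Odc1, by 1.01 against 0.94, and Sat1 over Oaz1, by 0.44 against 0.30. The SDs of Amd2 (0.10), Sat1 (0.09) and Oaz1 (0.29) rest on 2, 3 and 4 spots. Each lies below the SD of 0.738 pooled over all genes at 6 h. At 12 h the order was Amd2, Odc1, Srm, Sat1, Oaz1, Azin1, Oaz2 and Sms, and 0 of the 7 gaps exceeded it. These orders rank ratios of sheared over control, not transcript levels.

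**Figure D2:**
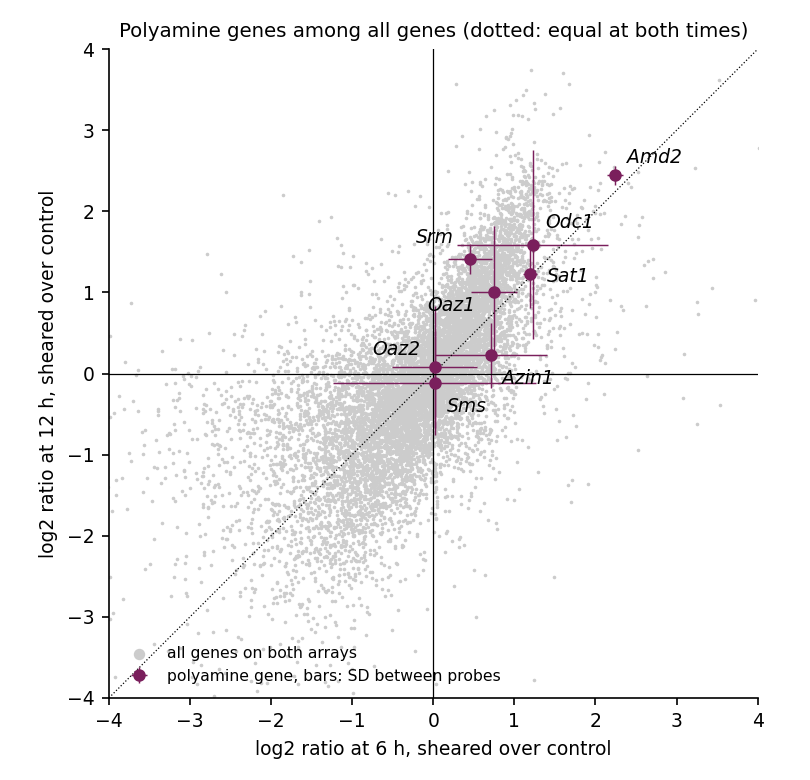
Log2 ratio of sheared over control at 6 h (horizontal axis) against 12 h (vertical axis). Grey points are the 10286 genes measured on both arrays, of which 86 lie outside the axes, purple points are the 8 polyamine genes with bars for the SD between spots, and the dotted line marks equal values. Amd2 lies at the upper right edge of the cloud, Srm above the dotted line and Azin1 below it, and Oaz2 and Sms lie near the origin.

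Between the times, Srm read higher at 12 h than at 6 h and Azin1 lower. Each time has 1 array and its own control, so time and array cannot be told apart. For all 10286 genes on both arrays, the 12 h value minus the 6 h value had quartiles of -0.37 and 0.58 and a median of 0.12. For Srm the difference of the gene values was 0.96 (1.94-fold), the 3 spots moved by 0.57, 0.96 and 0.74, and 87.5% of all genes had a lower difference. Srm was the 1 gene of the 8 at least 1.5-fold higher at 12 h than at 6 h, and 0 were that much lower, against 24.9% and 17.4% of all genes. Azin1 was that much lower without centring, at -0.64, and with both arrays brought to one deviation, at -0.60.

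For Azin1 the difference was -0.49, with 6 of its 7 spots lower at 12 h, from -0.93 to 0.05 and with a median over spots of -0.46 (SD 0.31). Among all genes, 20.6% had a lower difference. For Odc1 the difference of the gene medians was 0.36, while spot by spot the median difference was 0.69 (SD 0.48), with 6 of 7 spots higher at 12 h. The gap of Odc1 over Azin1 within an array was 0.51 at 6 h and 1.36 at 12 h, with combined SDs of 1.16 and 1.23.

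The other differences between the arrays were smaller. They were 0.26 for Oaz1 and 0.21 for Amd2. The values were 0.06 for Oaz2, 0.04 for Sat1 and -0.13 for Sms. With both arrays brought to one deviation, the difference turned to -0.33 for Amd2 and -0.24 for Sat1 and was 0.04 for Odc1, while it was 0.75 for Srm.

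**Figure D3:**
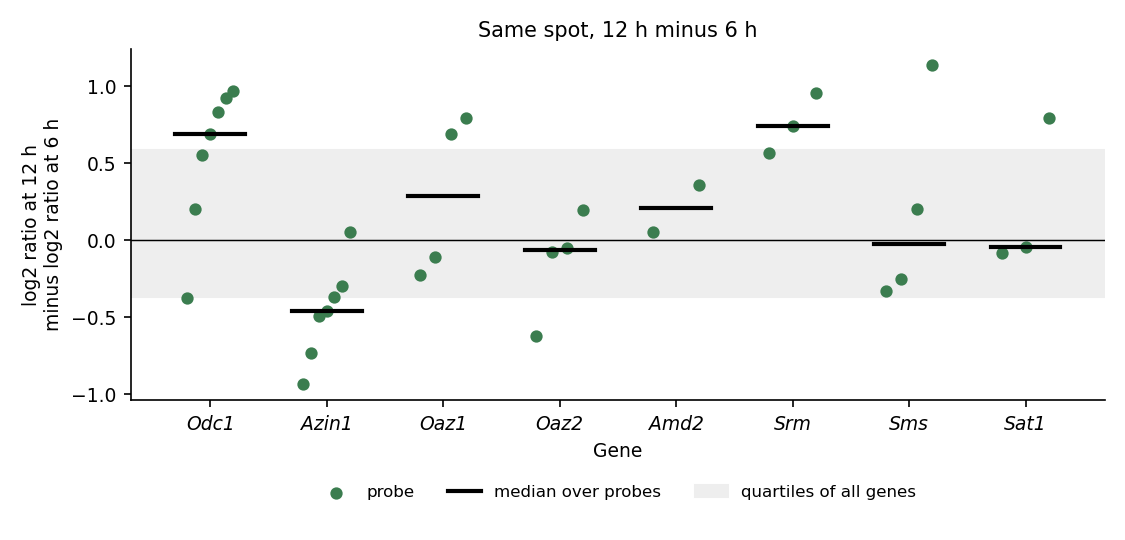
Log2 ratio at 12 h minus log2 ratio at 6 h (vertical axis) for the same spot, for each of the 8 genes. Green points are spots, black bars their medians and the grey band spans the quartiles of all genes, -0.37 to 0.58. All 3 Srm spots lie above 0, and 6 of 7 Azin1 spots lie below it.

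Around the core enzymes, a list of 38 genes was drawn up by role, of which 26 were measured at 6 h and 28 at 12 h. At 6 h, the median was 0.18, and 6 of the 26 passed 1.5-fold upward and 5 downward, beside 18.2% and 31.3% of all genes. At 12 h the median was 0.36, and 10 of the 28 passed it upward and 2 downward, beside 24.4% and 33.1% of all genes. Among the 26 genes on both arrays, 19 read higher at 12 h, as did 56.6% of all genes on both.

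Spermidine is the donor for hypusine, the modified lysine that the translation factor eIF5A needs, and both measured genes of that step read higher. Eif5a, the factor itself, stood at 1.04 (SD 0.50, 3 spots) at 6 h and 1.78 (SD 0.19) at 12 h, or 2.05-fold and 3.42-fold. Dhps, deoxyhypusine synthase, stood at 0.78 (SD 0.41, 3 spots) and 1.12 (SD 0.40). Both were at least 1.5-fold higher on both arrays, beside 18.2% of all genes at 6 h and 24.4% at 12 h. Without centring, Dhps at 6 h stood at 0.46, below that mark. Dohh and Eif5a2, of the same list, were not measured. The gap of Odc1 over Eif5a was 0.19 at 6 h and -0.19 at 12 h, within the combined SDs of 1.06 and 1.18.

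Smox and Sat2 read higher at 12 h than at 6 h. Smox, spermine oxidase, stood at 0.47 (SD 1.21, 2 spots) at 6 h and 0.95 (SD 0.69) at 12 h. Sat2, a relative of Sat1, stood at 0.38 and 1.51 on 1 spot. Of the other regulators, Azin2 stood at -1.19 and -0.44 on 1 spot, and Oaz3, an antizyme known from the testis, at -0.71 (SD 0.12, 2 spots) and 0.34 (SD 0.29).

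The measured genes of arginine and ornithine supply lay nearer to 0. The arginase genes Arg1 and Arg2, and Otc and Agmat, of the same list, were not measured. The 5 measured had medians of 0.18 at 6 h and 0.33 at 12 h, and 1 passed 1.5-fold upward at 6 h, 2 at 12 h and 0 downward, beside 18.2% and 24.4% of all genes upward and 31.3% and 33.1% downward. Ass1, argininosuccinate synthase, stood at 0.88 and 0.67 on 1 spot, and Oat, ornithine aminotransferase, at 0.12 (SD 1.31, 5 spots) and 0.59 (SD 0.15).

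The methionine cycle and salvage genes, which provide S-adenosylmethionine and recover its remains, had medians of 0.40 over 7 genes at 6 h and 0.38 over 9 at 12 h. Ahcy, which clears S-adenosylhomocysteine, stood at 0.40 (SD 0.06, 2 spots) and 1.45 (SD 0.30). Mtap, which recycles the methylthioadenosine left by both aminopropyl transferases, stood at 0.57 (SD 0.19, 3 spots) and 0.40 (SD 0.20). Gnmt, a methyltransferase that uses S-adenosylmethionine, stood at 3.53 at 6 h and -0.39 at 12 h on 1 spot, which has no check of its own.

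Transport genes were mixed, with 1 of 5 at least 1.5-fold higher and 2 lower on each array, beside 18.2% and 31.3% of all genes at 6 h and 24.4% and 33.1% at 12 h. Slc3a2, the heavy chain of several amino acid carriers, stood at 0.82 (SD 1.10, 4 spots) and 0.89 (SD 1.02). Atp13a3, an ATPase known for polyamine uptake, stood at -0.79 (SD 0.44, 4 spots) and -1.08 (SD 0.77). Slc7a2, a cationic amino acid carrier for arginine and ornithine, stood at -1.97 and -1.22 on 1 spot.

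Odc1 is a classic target of the transcription factor Myc with its partner Max. Myc stood at 2.33 (SD 0.23, 3 spots), or 5.04-fold, at 6 h and at 0.78 (SD 0.22), or 1.72-fold, at 12 h. Max stood at -0.29 (SD 0.21, 3 spots) and 0.17 (SD 0.61), and Mxd1, a competing partner of Max, at -1.17 (SD 1.5, 3 spots) and -0.43 (SD 0.64). The 12 h value minus the 6 h value was -1.55 for Myc and 0.36 for Odc1. Any link between Myc and Odc1 in these cells was not tested.

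**Figure D4:**
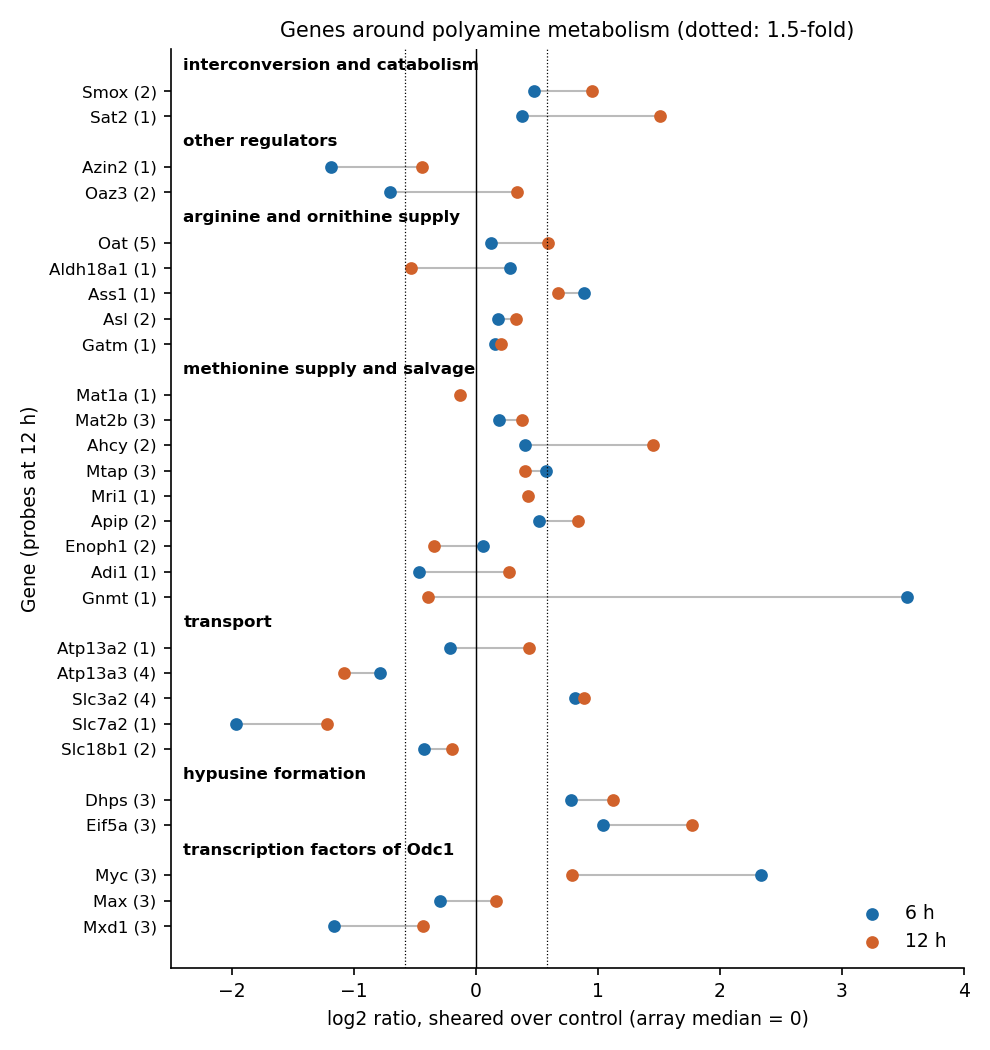
Log2 ratio of sheared over control (horizontal axis, array median at 0) of the 28 measured genes around polyamine metabolism, grouped by role, with the number of spots at 12 h in brackets. Blue points are 6 h, orange points 12 h, and dotted lines mark 1.5-fold. Eif5a and Dhps lie right of the upper line at both times, and Gnmt, at 3.53 on 1 spot, and Myc, at 2.33, are the highest at 6 h.

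After centring, abundant transcripts also read above 0 on both arrays. Eef1a1, elongation factor 1 alpha, stood at 0.94 (SD 0.28, 5 spots) at 6 h and 1.17 (SD 0.34) at 12 h. Actb, cytoplasmic actin, stood at 0.33 (SD 0.36, 13 spots) and 0.44 (SD 0.17), and Gapdh at 0.34 (SD 0.74, 2 spots) and 0.72 (SD 1.54). Of the 2 Gapdh spots, 1 lay above 0 on each array. Without centring, Actb stood at 0.01 and -0.04, Gapdh at 0.02 and 0.25, and Eef1a1 at 0.62 and 0.69. Amd2 exceeded Eef1a1 by 1.29 at 6 h and 1.28 at 12 h, beyond the combined SDs of 0.30 and 0.36. The SD of Amd2 rests on 2 spots. Odc1 exceeded Eef1a1 by 0.28 and 0.42, within the combined SDs of 0.97 and 1.22. Spot brightness was not used here, and the part of abundance in these values was not tested.

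Markers of other cell types were read on the same arrays. Of 8 leukocyte markers, 5 were measured, with a median of 0.44 and a range of -0.78 to 0.80 at 6 h. At that time 1 of the 5 was at least 1.5-fold higher and 1 lower, beside 18.2% and 31.3% of all genes. At 12 h the median of the 5 was 1.14, from -1.05 to 1.70. Of them, 3 were at least 1.5-fold higher and 1 lower, beside 24.4% and 33.1% of all genes. Over all 26 markers of leukocytes, endothelium, muscle and epithelium, 19 were measured and their median was -0.09 at 6 h and -0.03 at 12 h. Endothelium had medians of -0.45 at 6 h and -0.61 at 12 h, muscle 0.26 and 0.19, and epithelium -0.69 and -0.36. The part of these cell types in the polyamine values was not tested. Tendon markers had medians of 0.27 and -0.20 over 6 of 10 genes, and a table of ratios gives no level from which the labelled cell type could be checked.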

How the data were processed

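Total RNA of sheared and control tendon cells was hybridised on 2 two-colour spotted arrays, 1 at 6 h and 1 at 12 h. The deposited table holds 1 log ratio per spot (42624 spots), taken as log2. The authors' scanner, background correction, normalization and spot filter are not given in the sources used here. Per the labels, Cy5 carried sheared and Cy3 control RNA.

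The median of all spots of an array was subtracted from its values (Python 3.11.15, pandas 2.3.3). Gene names came from GEO's annotation of the platform, with symbols checked by gene ID against RefSeq, GRCm38.p6. Of all spots, 21701 carried 1 gene symbol and were used, 1124 carried several and 19799 none. Gene values are medians of spots. Centring and gene medians were checked on simulated data with known shifts. The share of genes past 1.5-fold was recorded there but not held to a limit.

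Every measured polyamine gene is named, and further genes come from lists by role. No gene was ranked by likeness to them, because 2 arrays give 2 values per gene. The members and lists were chosen with earlier results of these data known. With 1 array per time point no test was made. The alternatives were no centring, the mean of spots, spots of several symbols, print blocks of 900 spot numbers centred, one deviation for both arrays, spots on both arrays, genes with 2 or more spots and a 2-fold threshold.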

Additional observations from a re-analysis of the deposited data

Results flagged for a closer look

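Genes whose value lay on opposite sides of 0 at 6 h and 12 h were singled out, and none of these differences was tested, since each time has 1 array. Among the 8 measured polyamine genes this held for Sms, at 0.017 at 6 h and -0.11 at 12 h, both within the SD between its spots. Among the 26 genes around the pathway on both arrays it held for 7. How often it holds among all genes was not counted, so these counts are a description only. Gnmt stood at 3.53 and -0.39, Aldh18a1, which makes the precursor of proline and ornithine, at 0.28 and -0.54, and Adi1, of methionine salvage, at -0.47 and 0.27, each on 1 spot. Atp13a2, a lysosomal polyamine exporter, stood at -0.22 and 0.44 on 1 spot. Oaz3 stood at -0.71 and 0.34, Enoph1, of methionine salvage, at 0.061 and -0.34, each on 2 spots, and Max at -0.29 and 0.17 on 3 spots.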

How the results depend on the processing

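The count of polyamine genes at least 1.5-fold higher at 6 h was 5 as reported and 3 with the values as deposited, where Oaz1 and Azin1 lay below the threshold by construction, since each value was lowered by the array median. It was also 3 with a threshold of 2-fold. At 12 h, 1 gene, Sms at -0.59, was at least 1.5-fold lower without centring. The median of the 8 genes was 0.41 at 6 h and 0.64 at 12 h without centring, and from 0.66 to 0.82 and from 1.0 to 1.18 under the other alternatives. Of 190 values of these genes and their list under the alternatives, 187 moved by less than the SD between spots pooled over all genes (0.738 at 6 h, 0.855 at 12 h, 1.13 for a difference) or, for counts, by at most 1.5 times. Much of this was fixed in advance. All 34 spots of these genes were on both arrays and 0 carried several symbols, so those 2 alternatives could not move a value. Nor could the limit of 2 or more spots, which each measured gene met. No centring shifted every value by 0.323 or 0.479, below these SDs. The 187 are therefore no measure of robustness. Against the SD of a gene's own spots, 14 of 96 values at a single time moved further, 8 of them without centring, 3 with print blocks centred and 3 with one deviation for both arrays. The 96 include 16 values with spots on both arrays and 16 with spots of several symbols, none of which could move. Srm at 6 h passed 1.5-fold, at 0.64, with print blocks centred. Gapdh at 12 h, 1.88 with spots of several symbols kept, moved further. No value of a polyamine gene past 1.5-fold changed sign under these alternatives. No paired analysis was possible because each time point has 1 array. No brightness was used, so signal over background cannot limit or weight a value here.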
